A study of Mus musculus with 24 samples.

Results

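The data are 8 RNA libraries of tumour-associated macrophages (TAM) from mouse melanomas, 4 labelled knockout for Tet2 in myeloid cells and 4 labelled wild type. They were chosen by the genotype in their column names and are 8 of the 24 samples of the series. The labelled knockout mice carried LysMcre +/wt and Tet2 fl/fl, and the wild-type mice carried LysMcre wt/wt and Tet2 fl/fl, so both groups held the floxed Tet2 alleles and differed by the Cre. LysM-Cre is a Cre recombinase placed in the lysozyme gene Lyz2, and it acts in macrophages, monocytes and neutrophils. Per the labels, all mice were C57BL/6 males of 6 to 8 weeks, with tumours grown under the skin of the flank from YUMM1.7, a single mouse melanoma cell line (BrafV600E, Cdkn2a-/-), and taken after 4 weeks with no treatment. The TAM were the CD11b+F4/80+ cells of the sort, and their RNA was selected for poly(A). The labels do not say whether each library came from 1 mouse, so the p-values below measure the spread between these libraries.

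TET2 oxidises 5-methylcytosine in DNA to 5-hydroxymethylcytosine, a step toward loss of methylation, and is often mutated in blood cancers. Macrophages in tumours come largely from blood monocytes. They range from inflammatory and interferon-exposed cells, which make Il1b, Tnf, Nos2 and Cxcl10, to cells with an alternative or immunosuppressive programme, marked by Arg1, Mrc1, Clec10a and Cd163. The comparison asks how the absence of Tet2 from myeloid cells changes the RNA of these macrophages.

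Several libraries stood apart before any comparison. Values are FPKM, fragments scaled to transcript length and library total. The first principal component of the 8 libraries held 44.5% of the variance, with the labelled knockout libraries at scores of 0.05 to 0.40, wild-type libraries 1, 2 and 7 at -0.10 to 0.09 and wild-type library 8 at -0.83. Labelled knockout library 5 listed 11137 genes at 0, against 8500 to 9294 in the other 7 libraries, and its 5th percentile of non-zero FPKM was 0.197, against 0.0296 to 0.0417, as in a shallower library. The labelled knockouts also fell into 2 close pairs: over 4569 genes the median absolute log2 difference was 0.10 between knockout libraries 3 and 4 and 0.15 between 5 and 6, against 0.30 to 0.34 between the pairs and 0.20 to 0.44 within the wild types. Without counts it cannot be tested whether the members of a pair differ by more than sampling noise. The sex-linked genes went against the stated male sex in 7 libraries. Xist, the RNA that silences an X chromosome in females, was at 63.7 to 128 FPKM in the labelled knockouts and at 62.4 to 76.6 FPKM in wild-type libraries 1, 2 and 7, with the Y-linked gene Ddx3y under 0.5 FPKM in all 7. In wild-type library 8 Xist was at 0.414 FPKM and Ddx3y at 20.3 FPKM.

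Tet2 RNA was not lower in the labelled knockouts. It was at 19.0, 15.7, 16.9 and 14.4 FPKM in labelled knockout libraries 3, 4, 5 and 6, against 12.6, 15.8, 16.1 and 7.75 FPKM in wild-type libraries 1, 2, 7 and 8, and values below keep this library order. The groups overlapped, with a difference of 0.36 ± 0.22 on the log2(FPKM + 1) scale (SE, n = 4 each, limma adjusted p = 0.418), or 0.14 without wild-type library 8. A gene-level FPKM includes reads from exons outside a deleted part, so this value does not show whether the floxed exon was lost, and the group is called labelled knockout throughout. Tet3, a related oxidase, averaged a difference of -0.08 ± 0.13 (limma adjusted p = 0.759). Lyz2, the gene that carries the Cre, was at 3027, 2921, 1091 and 1264 FPKM in the labelled knockouts, against 4760, 3611, 4059 and 5875 FPKM in wild type. Its groups did not overlap, although the difference of -1.27 ± 0.39 did not pass the threshold (limma adjusted p = 0.189). The list of TET enzymes and DNA methylation genes had 14 of 16 members tested and none past adjusted p 0.05. Among them were Idh1, which makes the 2-oxoglutarate that TET enzymes need, at -0.68 ± 0.25, or -0.42 ± 0.12 without wild-type library 8, and the DNA methyltransferase Dnmt3a at 0.38 ± 0.16.

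Between the labelled knockouts and wild type, 10 of 9897 tested genes passed adjusted p 0.05 in limma's test (0.101%). Of these, 5 rose (0.0505%) and 5 fell (0.0505%). At an unadjusted p under 0.05, 1225 genes were higher (12.4%) and 451 lower (4.56%), and the median difference over all tested genes was 0.09, with 61.9% of genes above 0. Differences are log2(FPKM + 1), labelled knockout minus wild type, and understate the change of low genes.

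Among the 5 genes that rose past the threshold, the largest difference was that of Cd276, which encodes B7-H3, an immune checkpoint ligand of the B7 family. It was at 14.8, 13.5, 14.8 and 12.1 FPKM in the labelled knockouts, against 5.31, 5.08, 4.41 and 6.12 FPKM in wild type. The lowest labelled knockout lay well above the highest wild type, and the difference was 1.25 ± 0.12 (SE, limma adjusted p = 0.0149). Parp11, a mono-ADP-ribosyltransferase, was at 11.4, 11.4, 9.42 and 11.2 FPKM in the labelled knockouts, against 4.63, 4.36, 5.61 and 3.21 FPKM in wild type. Its groups also stood clear of each other, and it rose by 1.13 ± 0.15 (limma adjusted p = 0.0471). Bin2, a membrane-bending protein of blood cells, averaged 85.2 ± 3.67 FPKM in the labelled knockouts and 43.5 ± 3.83 FPKM in wild type (SD, n = 4 each), a rise of 0.96 ± 0.12 (limma adjusted p = 0.0389). Bin2 was the most abundant of the genes that rose. Abi3, a subunit of a complex that drives actin branching, averaged 15.5 ± 1.21 FPKM in the labelled knockouts and 8.42 ± 0.622 FPKM in wild type and rose by 0.81 ± 0.10 (limma adjusted p = 0.0471). Tssc1, a protein of endosomal recycling, averaged 9.39 ± 0.75 FPKM in the labelled knockouts and 4.81 ± 0.308 FPKM in wild type and rose by 0.84 ± 0.10 (limma adjusted p = 0.0389). Under median-of-ratios and under quantile scaling, which bring the median over all genes to -0.01 and 0.00, Cd276 alone of these 5 passed.

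Among the genes that fell, Clec10a is a galactose-binding lectin receptor and a marker of alternatively activated macrophages. It was at 3.19, 4.69, 4.11 and 5.99 FPKM in the labelled knockouts, against 16.8, 15.9, 22.8 and 20.5 FPKM in wild type. The highest labelled knockout library lay well under the lowest wild type, and the difference was -1.87 ± 0.18 (limma adjusted p = 0.0149). Sult1a1, which sulfates phenols and hormones, was at 1.56, 1.83, 1.62 and 1.02 FPKM in the labelled knockouts, against 16.5, 6.96, 10.7 and 18.5 FPKM in wild type. The wild-type libraries varied widely, yet all were above every labelled knockout (-2.42 ± 0.28, limma adjusted p = 0.0358). Il1rl2, the receptor of the IL36 cytokines, was at 2.42, 2.33, 2.71 and 3.55 FPKM in the labelled knockouts, against 7.15, 6.91, 10.2 and 6.76 FPKM in wild type, and fell by 1.22 on this scale with an SE of 0.16 (limma adjusted p = 0.0471). Deptor, an inhibitor of the kinase mTOR, was even within each group: it averaged 2.70 ± 0.297 FPKM in the labelled knockouts and 5.76 ± 0.0774 FPKM in wild type (-0.87 ± 0.10, limma adjusted p = 0.0358). The fifth was Snora34, a small nucleolar RNA, named after its values were seen. It was listed at 0 in all 4 labelled knockouts and at 106, 704, 235 and 124 FPKM in wild type (limma adjusted p = 0.00222). Small nucleolar RNAs carry no poly(A) tail, and no fold is given against a group listed at 0.

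**Figure D1:**
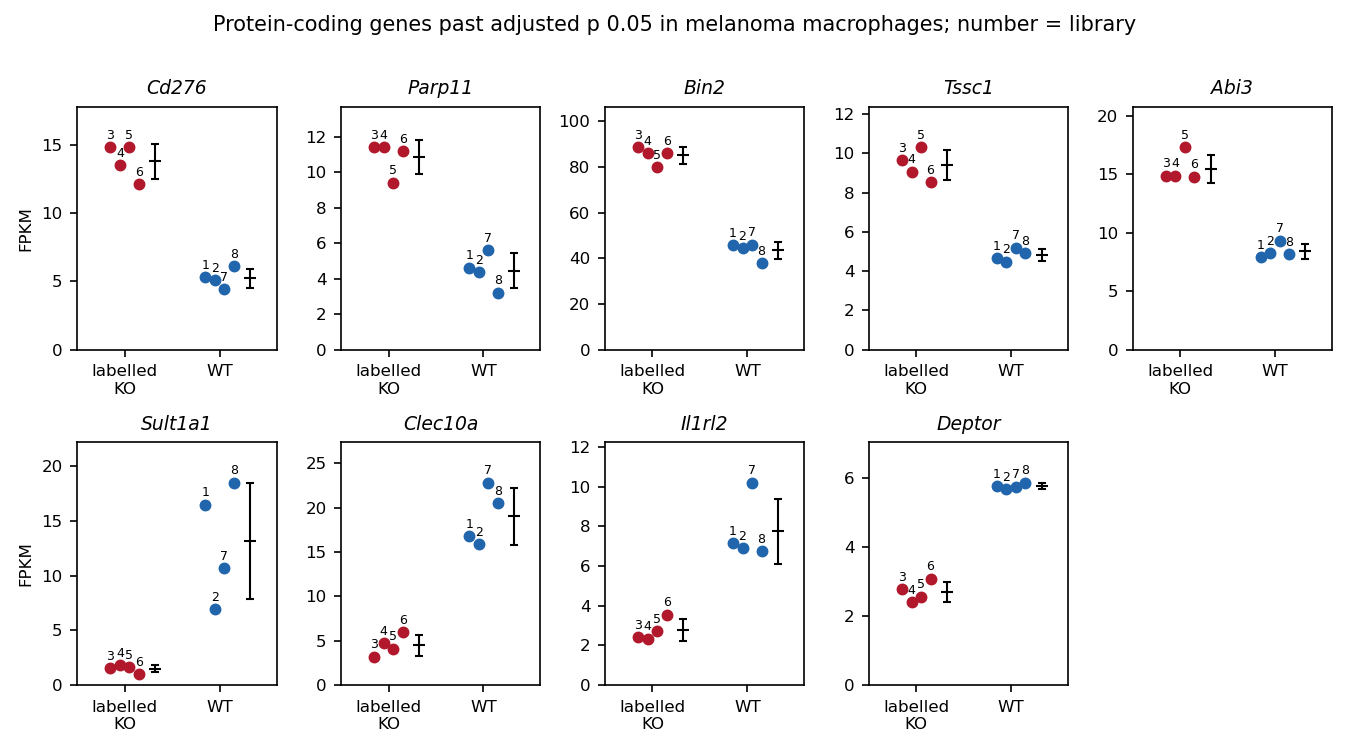
FPKM of the 9 protein-coding genes past adjusted p 0.05, on axes that start at 0, with labelled knockout libraries (red) left of wild type (blue). Points are libraries with their number, and the black mark is the mean with its SD (n = 4 each). In all 9 genes the 2 groups do not overlap, with Cd276 at 12.1 to 14.8 FPKM in the labelled knockouts and 4.41 to 6.12 FPKM in wild type.

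The calls changed when single libraries were left out. Each such fit has 5 residual degrees of freedom against 6, so a lost call need not mean that the gene rests on that library. Over all alternatives the difference ranged from 1.14 to 1.39 for Cd276 and from -2.07 to -1.75 for Clec10a. When 1 library was left out in turn, Snora34 passed in 8 of 8 fits and Clec10a in 5, which excluded those without labelled knockout library 3, 4 or 5. Cd276 passed in 4, lost without labelled knockout library 3, 4 or 5 or wild-type library 2. Sult1a1 passed in 2, without wild-type library 2 or 8. The other 6 genes passed only without wild-type library 8. With each close pair of labelled knockouts averaged to 1 library, none of the 10 passed (limma adjusted p = 0.232 for Cd276 and 0.135 for Clec10a), while the differences stayed at 1.25 and -1.87.

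The next genes by p in each direction did not pass. They were taken only from genes whose groups did not overlap, with at least 3 FPKM in the higher group. Above 0 were Cdk14, a cyclin-dependent kinase (0.93 ± 0.13, limma adjusted p = 0.058), the endothelin-converting enzyme Ece1 (1.05 ± 0.16, adjusted p = 0.0811) and the acyl-CoA synthetase Acsf2 (1.02 ± 0.16, adjusted p = 0.0822). Below 0 were Fam101b, an actin regulator (-1.23 ± 0.17, limma adjusted p = 0.0538), Lifr, the receptor of the cytokine LIF (-1.11 ± 0.17, adjusted p = 0.0822), and the fatty acid desaturase Scd2 (-1.09 ± 0.18, adjusted p = 0.0852). The lack of overlap in these 6 genes was therefore set by the choice and is no result. Over all tested genes, groups did not overlap in 904 on the higher side (9.13%) and 324 on the lower (3.27%).

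Arg1, the arginase that alternatively activated and suppressive macrophages use to break down arginine, had the lowest difference of its list. It was at 3.66, 1.36, 6.55 and 3.61 FPKM in the labelled knockouts, against 37.9, 25.6, 29.6 and 88.3 FPKM in wild type. The groups lay far apart and the difference was -3.21 ± 0.45, just outside the threshold (limma adjusted p = 0.0538). Without wild-type library 8 it was -2.84 ± 0.36 and passed (limma adjusted p = 0.0343). The haemoglobin scavenger receptor Cd163 was at 0.590, 0.828, 0.827 and 1.40 FPKM in the labelled knockouts, against 6.21, 7.15, 4.99 and 47.5 FPKM in wild type. Wild-type library 8 was far above the rest, and with it the difference was -2.60 ± 0.60 (limma adjusted p = 0.135). Without it the difference was -1.90 ± 0.18 and passed (limma adjusted p = 0.0263). Mrc1, the mannose receptor, was at 23.7, 21.9, 103 and 91.2 FPKM in the labelled knockouts, against 121, 100, 156 and 445 FPKM in wild type. Here labelled knockout libraries 3 and 4 were low, while 5 and 6 reached the lower wild types (-1.83 ± 0.65, limma adjusted p = 0.221). Mgl2, the close paralogue of Clec10a, followed no group: it was at 0.574, 0.505, 8.69 and 4.99 FPKM in the labelled knockouts and 0.993, 0.679, 32 and 7.96 FPKM in wild type (limma adjusted p = 0.742). Counting could have split reads between Clec10a and Mgl2, so the level of either is less certain.

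Over the list of immunosuppressive and alternative activation genes, 27 of 32 members were tested. Past adjusted p 0.05, 1 fell, Clec10a, and none rose. At an unadjusted p under 0.05, 8 were lower (29.6%, against 4.56% of all genes) and 1 was higher. The higher one was Pparg, a lipid-sensing nuclear receptor, at 8.48, 6.90, 15.4 and 11.8 FPKM in the labelled knockouts, against 5.30, 2.57, 2.88 and 1.29 FPKM in wild type (1.58 ± 0.33, limma adjusted p = 0.11). Trem2, a lipid receptor of macrophages in tumours, was among the lower ones, at 14.0, 13.9, 22.2 and 26.1 FPKM in the labelled knockouts, against 70.1, 32.9, 27.9 and 111 FPKM in wild type (-1.45 ± 0.44, limma adjusted p = 0.183). The list as a whole did not lean one way: 14 members were above 0 and 13 below, with a median of 0.25, which was 0.05 without wild-type library 8 and -0.03 under quantile scaling. Il10, the anti-inflammatory cytokine, was at 40.5, 37.5, 96.7 and 28.8 FPKM in the labelled knockouts, against 28.4, 74.8, 20.2 and 6.04 FPKM in wild type (limma adjusted p = 0.482).

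**Figure D2:**
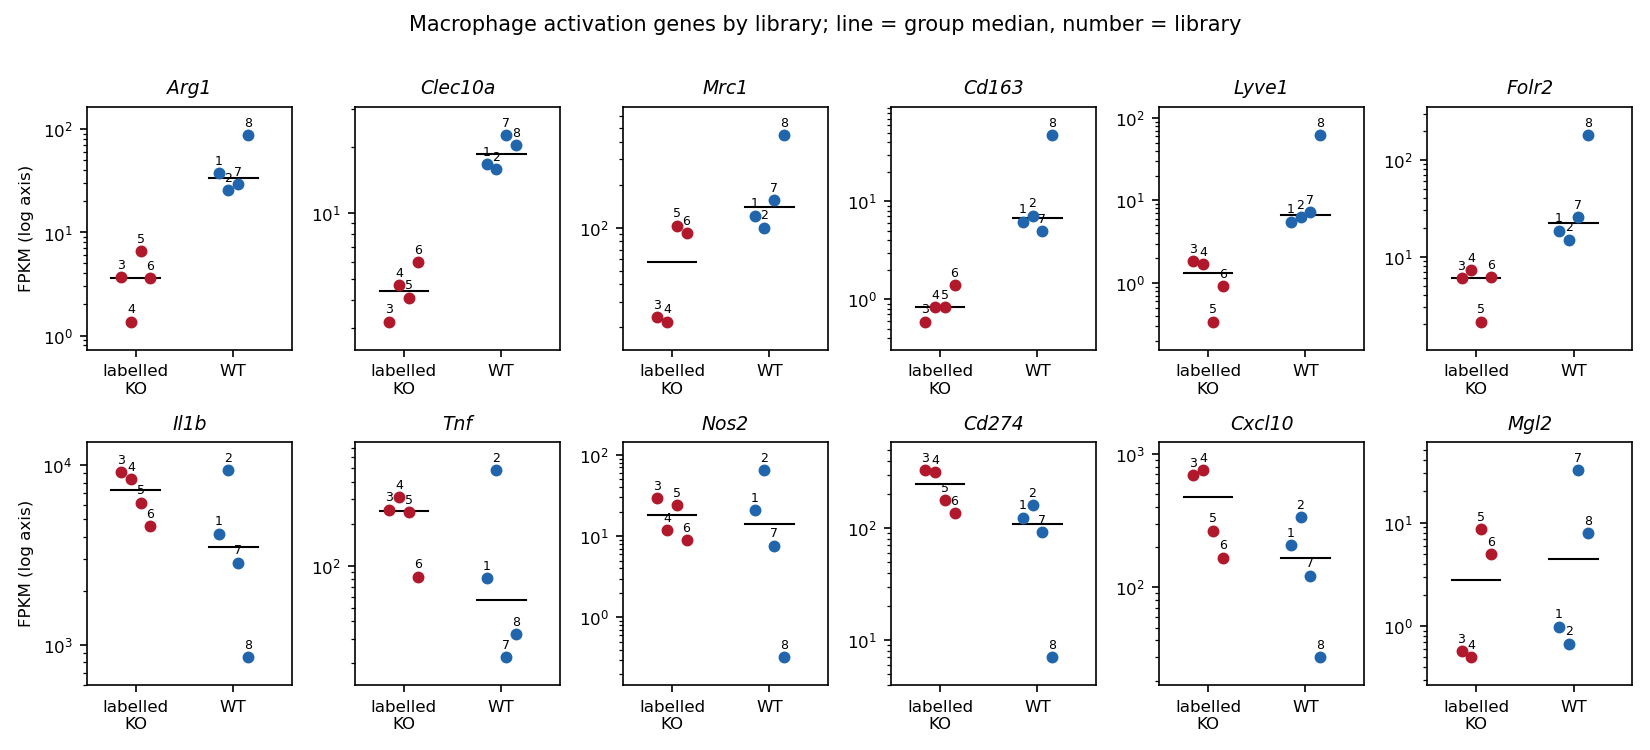
FPKM on a log axis of 12 genes of macrophage activation, with labelled knockout libraries (red) left of wild type (blue). Points are libraries with their number and the black line is the group median (n = 4 each). Arg1, Clec10a, Cd163, Lyve1 and Folr2 show no overlap between groups, whereas Il1b, Tnf and Nos2 overlap, with wild-type library 2 at the top and library 8 or 7 at the bottom of the wild types.

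Scavenger receptors and genes of dead-cell uptake lay in part in the same direction. Of 32 members, 24 were tested and none passed adjusted p 0.05 (smallest adjusted p = 0.11, limma). At an unadjusted p under 0.05, 6 were lower (25%, against 4.56% of all genes) and 1 higher. The higher one was Axl, a relative of Mertk, named after its values were seen, at 59.4, 63.0, 81.8 and 99.3 FPKM in the labelled knockouts, against 70.9 and 28.0 FPKM in wild-type libraries 1 and 2. In wild-type libraries 7 and 8 it was listed at 0, which can be a failed estimate. Groups did not overlap on the lower side in 6 of the 24 tested members (25%), against 3.27% of all genes. These were the same 6 members that a small p had picked, so their separation is no further result. They included Mertk, a receptor for dying cells that is also a macrophage marker, at 32.8, 34.1, 39.2 and 43.8 FPKM in the labelled knockouts, against 81.2, 63.2, 76.8 and 50.8 FPKM in wild type (-0.83 ± 0.18, limma adjusted p = 0.11). Lyve1 and Folr2, a hyaluronan and a folate receptor of tissue-resident macrophages, were far higher in wild-type library 8 than elsewhere. Lyve1 was at 1.85, 1.71, 0.341 and 0.917 FPKM in the labelled knockouts, against 5.51, 6.26, 7.21 and 61.8 FPKM in wild type. Folr2 was at 5.96, 7.22, 2.12 and 6.11 FPKM in the labelled knockouts, against 18.6, 15, 25.5 and 181 FPKM in wild type. The other 3 wild-type libraries still lay above every labelled knockout in both. Slc40a1, the iron exporter, had a smaller difference of -0.63 ± 0.21 (limma adjusted p = 0.214). The list's median was -0.49, and -0.24 without wild-type library 8.

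The genes of the interferon response had the highest median difference of the lists, but no member passed adjusted p 0.05. Interferons bind receptors on the cell surface, and the signal switches on antiviral genes. All 37 members were tested and all 37 had differences above 0, with a median of 1.44 against 0.09 over all genes. At an unadjusted p under 0.05, 25 were higher (67.6%, against 12.4% of all genes), and 11 (of 37) had groups that did not overlap, against 9.13% of all genes on this side. Isg15, a ubiquitin-like protein attached to other proteins after interferon, was at 693, 659, 302 and 353 FPKM in the labelled knockouts, against 107, 126, 248 and 26.6 FPKM in wild type (2.26 ± 0.63, limma adjusted p = 0.158). Usp18, the enzyme that removes it, was at 81.9, 80.8, 48.1 and 59.7 FPKM in the labelled knockouts, against 23.5, 20.1, 34.4 and 6.23 FPKM in wild type (1.81 ± 0.45, limma adjusted p = 0.141). Xaf1, a pro-apoptotic interferon target, was at 124, 104, 44.9 and 53.9 FPKM in the labelled knockouts, against 20.1, 25.1, 24.9 and 2.83 FPKM in wild type (2.31 ± 0.64, limma adjusted p = 0.158). In all 3 genes, labelled knockout libraries 3 and 4 were highest and wild-type library 8 lowest. Not all members kept the groups apart: Cxcl9, a T cell attractant, was at 185, 193, 109 and 117 FPKM in the labelled knockouts, against 157, 96.9, 146 and 2.09 FPKM in wild type (limma adjusted p = 0.515). Cxcl10, its relative, was at 689, 751, 266 and 167 FPKM in the labelled knockouts, against 207, 336, 122 and 30.1 FPKM in wild type (limma adjusted p = 0.33).

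The interferon list differed between pairs of libraries within a group as well. Centred on each gene's mean, the list's median was 1.23, 1.27, 0.11 and 0.37 in the labelled knockouts, against -0.34, -0.38, 0.18 and -2.46 in wild type. Wild-type library 7 therefore lay between labelled knockout libraries 5 and 6. Without wild-type library 8, 21 members were higher at an unadjusted p under 0.05 (56.8%, against 11.1% of all genes) and the median was 0.85. With labelled knockout libraries 3 and 4 averaged to 1 library 8 were (21.6%, against 8.39% of all genes). With both pairs averaged 3 were (8.11%, against 4.50% of all genes). With limma's array weights, which gave libraries 3 and 4 of the labelled knockouts 4.38 and 3.05 and wild-type library 8 0.242, 33 members passed adjusted p 0.05, in a fit that called 2055 genes.

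**Figure D3:**
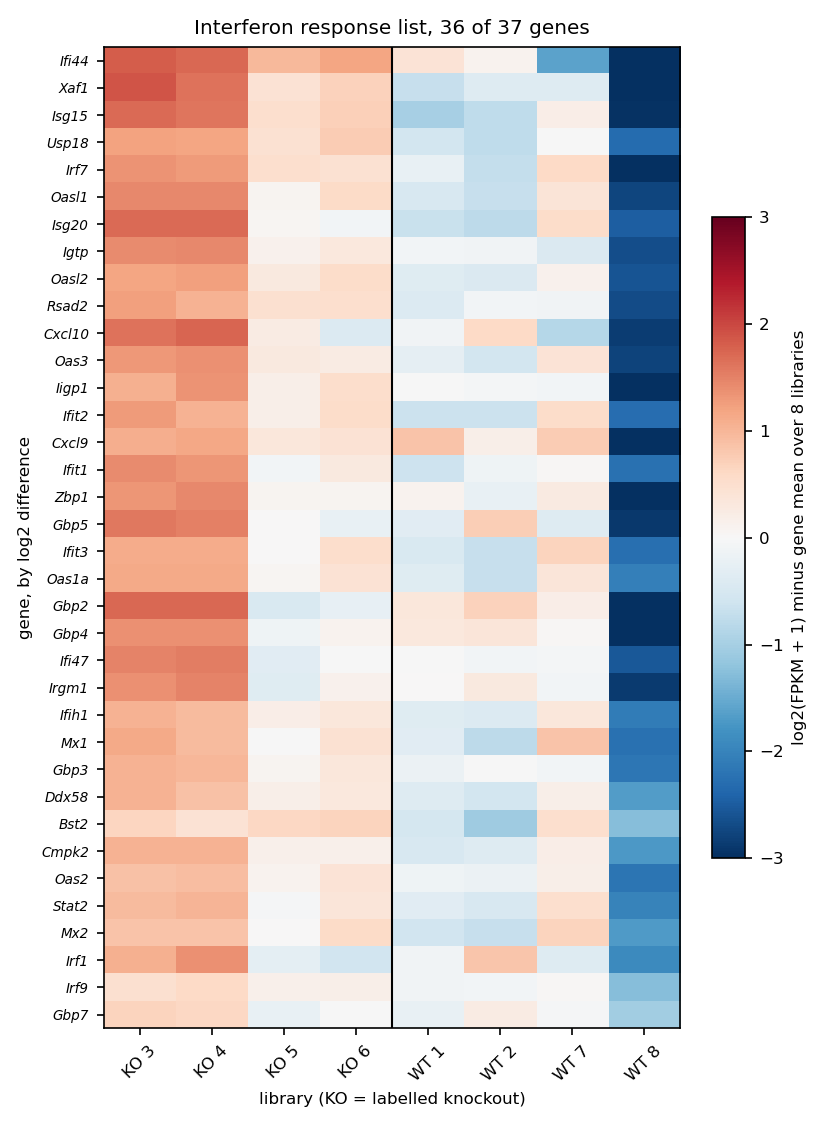
Heat map of 36 of the 37 interferon response genes, ordered by their log2 difference, in the 8 libraries, labelled knockouts left of the line. Colour is log2(FPKM + 1) minus the gene's mean over the 8 libraries, limited to between -3 and 3. Labelled knockout libraries 3 and 4 are high and wild-type library 8 is low in nearly every gene, and the other 5 libraries lie between them.

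Many interferon genes share a promoter element. Of the 11 members with separate groups, a match was found in 4, which are shown. The others had no match or no promoter available. The element searched was TTTCNNTTTC, in either orientation, in the 250 bases before each gene's start in the RefSeq promoters of GRCm38.p6. It was found in 15 of the 29 list members with a promoter there (51.7%) and in 936 of 27025 genes in all (3.46%). Each stretch reads 5′ to 3′ on the gene's strand, with the match in capitals, and the match may overlap another one:
Isg15, chr4:156200856-156200915, minus strand: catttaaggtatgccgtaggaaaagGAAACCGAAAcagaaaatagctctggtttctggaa
Rsad2, chr12:26456538-26456597, minus strand: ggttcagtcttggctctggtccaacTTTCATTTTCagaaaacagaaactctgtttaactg
Gbp3, chr3:142559974-142560033, plus strand: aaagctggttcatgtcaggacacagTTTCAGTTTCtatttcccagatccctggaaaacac
Igtp, chr11:58199497-58199555, plus strand: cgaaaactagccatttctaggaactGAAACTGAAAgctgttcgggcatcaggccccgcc
Of these, Rsad2, which blocks virus budding, was at 169, 148, 100 and 101 FPKM in the labelled knockouts, against 53.6, 67.4, 66.1 and 10.2 FPKM in wild type (limma adjusted p = 0.218). The GTPases Gbp3 and Igtp had differences of 1.22 ± 0.49 and 1.65 ± 0.60 (limma adjusted p = 0.261 and 0.234). A match is a description of the letters and does not show that a factor bound there.

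Antigen presentation genes lay mostly above 0, with no member past adjusted p 0.05. Of the MHC class I list, 19 of 20 tested members were above 0 (95%, against 61.9% of all genes), with a median of 0.82, and 3 were higher at an unadjusted p under 0.05 (15%, against 12.4%). Psmb9, an immunoproteasome subunit, was at 132, 141, 72.4 and 80.7 FPKM in the labelled knockouts, against 60.1, 47.2, 80.9 and 21.8 FPKM in wild type (limma adjusted p = 0.235). Wild-type library 7 overlapped the labelled knockouts and library 8 was lowest. Of the MHC class II list, 13 of 13 tested members were above 0, with a median of 0.83, and 2 were higher at an unadjusted p under 0.05 (15.4%, against 12.4%). H2-Ob, which tunes peptide loading, was low throughout, with a mean difference of 0.55 ± 0.19 (limma adjusted p = 0.214). Both medians were smaller without wild-type library 8, at 0.43 for class I and 0.30 for class II.

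Immune checkpoint and costimulation genes held the call for Cd276. Of 25 members, 21 were tested, 1 rose and none fell, and 18 were above 0 (85.7%, against 61.9%) with a median of 0.56, which was 0.27 without wild-type library 8. Tnfrsf14, the receptor HVEM, was at 26.3, 27.4, 22.1 and 22.6 FPKM in the labelled knockouts, against 16, 11.2, 18.9 and 9.95 FPKM in wild type (0.81 ± 0.20, limma adjusted p = 0.142). Siglece, an inhibitory sialic acid receptor, was at 44.7, 44.3, 42.7 and 41.6 FPKM in the labelled knockouts, against 34.5, 34.3, 22.2 and 22.8 FPKM in wild type (0.62 ± 0.17, limma adjusted p = 0.161). Both genes kept the groups apart without passing the threshold. Cd274, which encodes PD-L1, was at 328, 314, 178 and 135 FPKM in the labelled knockouts, against 124, 161, 92.2 and 7.05 FPKM in wild type. Its difference of 1.84 ± 0.88 did not pass, with wild-type library 2 above labelled knockout library 6 (limma adjusted p = 0.329). Without wild-type library 8 it was 0.86 ± 0.35.

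Inflammatory mediators were mostly above 0 and varied widely within each group. Of 31 members, 29 were tested, 27 were above 0 (93.1%, against 61.9%) with a median of 0.69, none passed adjusted p 0.05 and no member had separate groups. Without wild-type library 8, 22 were above 0 with a median of 0.29, against 6391 of all 9981 genes above 0. Without labelled knockout library 5 as well 19 were, with a median of 0.35, against 6379 of all 9875 genes. At an unadjusted p under 0.05, 2 were higher (6.90%, against 12.4%) and 1 lower (3.45%, against 4.56%). Il1b was at 9126, 8398, 6193 and 4581 FPKM in the labelled knockouts, against 4158, 9380, 2874 and 858 FPKM in wild type (limma adjusted p = 0.402). Tnf was at 252, 309, 242 and 83.4 FPKM in the labelled knockouts, against 81.9, 483, 22.2 and 32.2 FPKM in wild type (limma adjusted p = 0.429). Nos2, which makes nitric oxide, was at 29.1, 11.8, 24.2 and 8.90 FPKM in the labelled knockouts, against 20.9, 64.6, 7.59 and 0.324 FPKM in wild type (limma adjusted p = 0.778). In all 3 genes wild-type library 2 was the highest of the 8. Il6 behaved alike, at 20.0, 16, 18.5 and 3.38 FPKM in the labelled knockouts, against 13.1, 50.1, 5.95 and 1.43 FPKM in wild type (limma adjusted p = 0.868). The 2 higher members were Cd40, a costimulatory receptor (1.39 ± 0.58, limma adjusted p = 0.276, and 0.88 without wild-type library 8), and Il12b, a subunit of IL12 and IL23 (0.89 ± 0.31, adjusted p = 0.22). Of the IL1 receptor, MyD88 and NF-kB list, 19 of 22 tested members were above 0 (86.4%) and none passed. Its smallest p belonged to the adaptor Myd88 (0.83 ± 0.26, limma adjusted p = 0.193).

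Chemokines lay on both sides. Of 20 tested members none passed adjusted p 0.05, and at an unadjusted p under 0.05, 3 were higher (15%, against 12.4%) and 3 lower (15%, against 4.56%). Ccl6, a chemokine of resting macrophages, was at 92.4, 82.3, 57.0 and 51.5 FPKM in the labelled knockouts, against 202, 150, 239 and 432 FPKM in wild type (-1.77 ± 0.34, limma adjusted p = 0.102). Its relative Ccl9 was at 87.4, 72.2, 51.5 and 43.4 FPKM in the labelled knockouts, against 136, 120, 92.6 and 146 FPKM in wild type (-0.98 ± 0.25, limma adjusted p = 0.143). Both had groups that did not overlap. Ccl4, an inflammatory chemokine, was at 462, 437, 1028 and 503 FPKM in the labelled knockouts, against 213, 496, 140 and 126 FPKM in wild type (limma adjusted p = 0.2). Among the receptors, Cxcr3, the receptor of Cxcl9 and Cxcl10, was at 0.748, 0.807, 0 and 1.08 FPKM in the labelled knockouts, against 2.90, 1.68, 2.19 and 1.91 FPKM in wild type (limma adjusted p = 0.143).

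Lipid genes lay on both sides, and none passed adjusted p 0.05. Of 28 tested members of lipid handling, 8 were lower (28.6%, against 4.56%) and 3 higher (10.7%, against 12.4%) at an unadjusted p under 0.05. Without wild-type library 8, 4 of 28 were lower and 2 higher, against 427 lower and 1111 higher of all 9981 genes in that fit. With both pairs of labelled knockouts averaged 4 of 29 were lower, against 241 of all 10330 genes. Abca1, which exports cholesterol to lipoproteins, was at 26.2, 23.8, 41.0 and 44.0 FPKM in the labelled knockouts, against 59.4, 74.3, 54.0 and 95.3 FPKM in wild type (-1.06 ± 0.26, limma adjusted p = 0.138). Apoe, which carries it, was at 863, 1044, 1133 and 1808 FPKM in the labelled knockouts, against 3203, 1406, 2868 and 5146 FPKM in wild type (-1.29 ± 0.41, limma adjusted p = 0.199). Wild-type library 2 lay within the labelled knockouts for Apoe but not for Abca1. Nr1h3, which encodes LXR alpha, a sterol-sensing receptor that activates both, lay on the other side, at 16.4, 14.1, 7.17 and 11.1 FPKM in the labelled knockouts, against 6.11, 3.58, 5.52 and 3.78 FPKM in wild type (1.17 ± 0.25, limma adjusted p = 0.112). Npc1, a lysosomal cholesterol transporter, had a difference of -0.48 ± 0.16 (limma adjusted p = 0.214). Of the cholesterol synthesis list, 5 of 19 tested members were higher at an unadjusted p under 0.05 (26.3%, against 12.4%) and none lower. They included Idi1, an isomerase of the pathway, at 4.68, 5.55, 7.68 and 5.78 FPKM in the labelled knockouts, against 2.60, 3.37, 2.83 and 3.89 FPKM in wild type (0.72 ± 0.16, limma adjusted p = 0.122). With labelled knockout libraries 3 and 4 averaged, 1 of 19 was higher at an unadjusted p under 0.05, against 8.39% of all genes in that fit.

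In the energy lists no gene passed. Egln3, an oxygen sensor that hypoxia induces, was at 4.62, 2.57, 6.12 and 3.90 FPKM in the labelled knockouts, against 6.63, 13.4, 9.30 and 13.6 FPKM in wild type (-1.14 ± 0.27, limma adjusted p = 0.137). Bnip3l, a mitophagy receptor, had a difference of -0.44 ± 0.13 (limma adjusted p = 0.172), and both had groups that did not overlap. They were the 2 lower members of 34 tested in the glycolysis and hypoxia list (5.88%, against 4.56%) at an unadjusted p under 0.05, beside 1 higher (2.94%, against 12.4%). Among 37 members of oxidative phosphorylation, 3 were higher (8.11%, against 12.4%) and none lower. The one with the smallest p was cytochrome c, Cycs, at 34.5, 31.3, 24.4 and 22.8 FPKM in the labelled knockouts, against 19.9, 17.6, 14.9 and 11.8 FPKM in wild type (0.78 ± 0.20, limma adjusted p = 0.141). The list's median was 0.11, and -0.12 under quantile scaling.

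Lysosomal and complement genes had no member past adjusted p 0.05. Groups did not overlap on the higher side in 2 of 33 tested lysosomal members (6.06%), against 9.13% of all genes. In the complement list they did not in 2 of 16 (12.5%). On the lower side 1 complement member had separate groups (6.25%, against 3.27%). Ctsz and Ctsc, cathepsin proteases, had differences of 0.66 ± 0.15 and 0.71 ± 0.19 (limma adjusted p = 0.134 and 0.151) and were the only 2 of 33 tested lysosomal members (6.06%, against 12.4% higher) under an unadjusted p of 0.05. Ctsz was at 490, 464, 462 and 477 FPKM in the labelled knockouts, against 302, 292, 355 and 254 FPKM in wild type, close together within the labelled knockouts. Of 16 tested complement genes, 2 were higher (12.5%, against 12.4%) and 1 lower (6.25%, against 4.56%). Both higher ones were integrin chains of complement receptors. Itgax, which encodes CD11c, was at 170, 140, 255 and 222 FPKM in the labelled knockouts, against 64.8, 67.3, 104 and 14.3 FPKM in wild type (1.90 ± 0.54, limma adjusted p = 0.168). Itgb2, its partner chain, was at 295, 280, 219 and 200 FPKM in the labelled knockouts, against 183, 174, 160 and 110 FPKM in wild type (0.67 ± 0.21, limma adjusted p = 0.199).

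Matrix and angiogenesis genes held 3 higher (9.68%, against 12.4%) and 4 lower (12.9%, against 4.56%) members of 31 tested at an unadjusted p under 0.05, and none past adjusted p 0.05. Fn1, fibronectin, was at 62.0, 47.2, 25.7 and 18.1 FPKM in the labelled knockouts, against 107, 136, 91.0 and 351 FPKM in wild type (-2.07 ± 0.50, limma adjusted p = 0.138). Mmp13, a collagenase, was at 91.5, 57.8, 619 and 340 FPKM in the labelled knockouts, against 29.1, 78.2, 26.0 and 8.35 FPKM in wild type (2.72 ± 0.86, limma adjusted p = 0.196). For Mmp13 labelled knockout libraries 5 and 6 were the high ones, and 4 lay below wild-type library 2. Vegfa, the main angiogenic factor, split the same way, at 69.9, 58.9, 138 and 122 FPKM in the labelled knockouts, against 96.9, 52.2, 67.2 and 34.8 FPKM in wild type (limma adjusted p = 0.406). Spp1, osteopontin, was at 128, 149, 135 and 113 FPKM in the labelled knockouts, against 80.9, 199, 52.5 and 502 FPKM in wild type (limma adjusted p = 0.925), a difference whose sign depends on wild-type library 8 or 2.

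Cell cycle genes differed between the pairs of labelled knockouts, and none passed adjusted p 0.05. Centred on each gene's mean, the median of the 33 tested members was -0.39, -0.49, 0.91 and 0.80 in the labelled knockouts, against -0.30, -0.49, -0.39 and 0.37 in wild type. Of these members, 32 had differences above 0 (97%, against 61.9% of all genes), with a median of 0.48. Pcna, the replication clamp, was the 1 member under an unadjusted p of 0.05 (3.03%, against 12.4% of all genes higher). It was at 128, 145, 152 and 138 FPKM in the labelled knockouts, against 98.2, 121, 87.3 and 72.5 FPKM in wild type (0.59 ± 0.17, limma adjusted p = 0.181). Tk1, thymidine kinase, showed the pairs, at 7.56, 7.05, 16.1 and 12.7 FPKM in the labelled knockouts, against 6.09, 3.59, 6.45 and 11.2 FPKM in wild type (limma adjusted p = 0.377). The immediate early and stress list held 5 higher (15.6%, against 12.4%) and 2 lower (6.25%, against 4.56%) of 32 tested at an unadjusted p under 0.05. They included Ddit3, a factor of the unfolded protein response (0.69 ± 0.21, limma adjusted p = 0.189), and Klf2, a quiescence factor (-0.91 ± 0.32, adjusted p = 0.221).

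**Figure D4:**
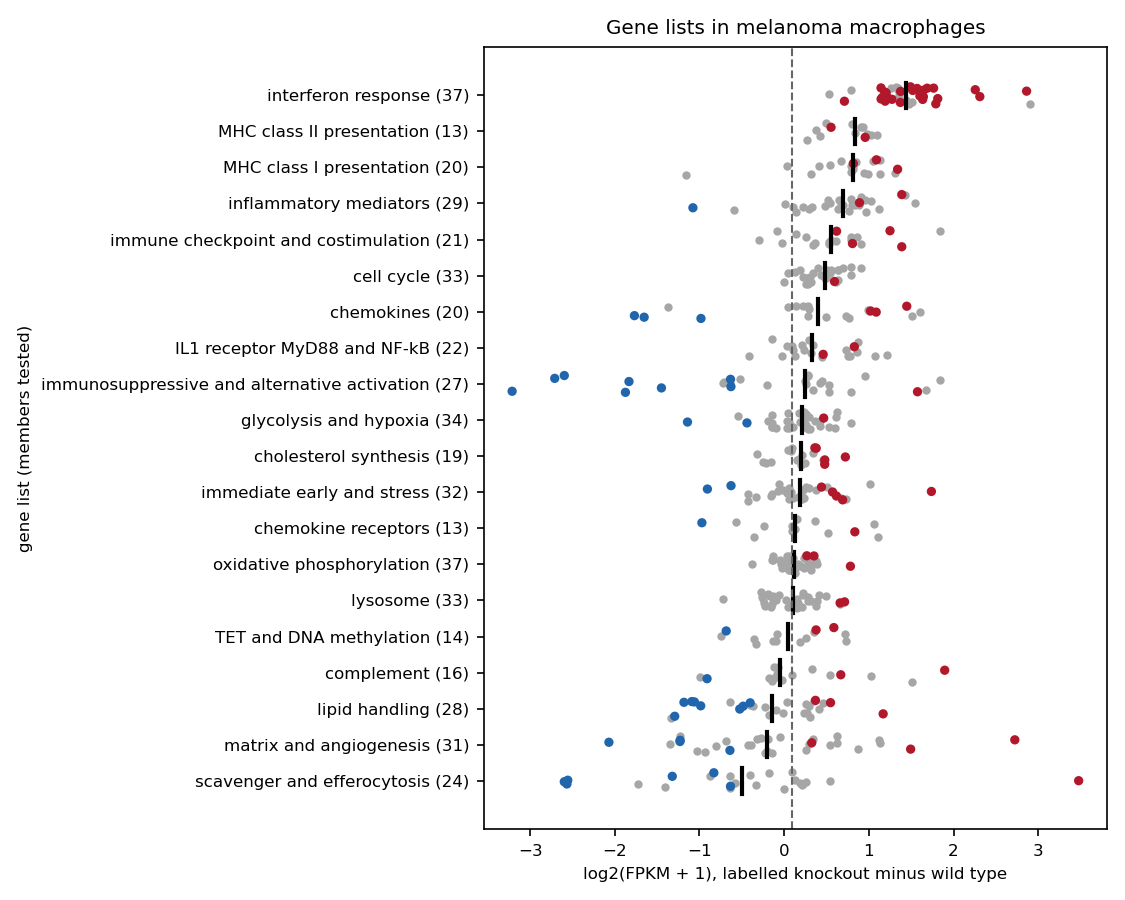
Differences in log2(FPKM + 1), labelled knockout minus wild type (n = 4 each), of every tested member of 20 gene lists, ordered by the list's median (black bar), with the number tested in brackets. Coloured points are members at an unadjusted p under 0.05 (red higher, blue lower), and the dashed line is the median over all 9897 genes, 0.09. The interferon list has the highest median, 1.44, and the scavenger list the lowest, -0.49.

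Markers of other cell types moved between libraries, and their part in the results above was not tested. In bulk RNA, fewer cells of a type and less RNA per cell cannot be told apart. All 14 macrophage markers were present, and their summed level was 5769 to 7343 FPKM in the labelled knockouts, against 8085 to 10446 FPKM in wild type. Lyz2, the gene that carries the Cre, made up much of that sum. Of the 14 macrophage markers, 7 had differences above 0 and 7 below, with a median of 0.06. Groups did not overlap in 3 of the 14 on the higher side, against 9.13% of all genes. On the lower side they did not in 2, Lyz2 and Mertk, against 3.27% of all genes. With Lyz2 taken out of each library's sum, the sums of the 2 groups overlap, and no test was run on them. The 13 monocyte markers summed to 11959, 11742, 2319 and 2870 FPKM in the labelled knockouts, against 5059, 6092, 5460 and 1256 FPKM in wild type. Ly6c2, which marks blood-derived inflammatory monocytes, was at 1576, 1623, 282 and 406 FPKM in the labelled knockouts, against 652, 433, 803 and 24.4 FPKM in wild type (limma adjusted p = 0.528), and reads of its near-identical copy Ly6c1 could have been counted to it. Labelled knockout libraries 3 and 4 were highest for both the interferon list and the monocyte markers, and wild-type library 8 was lowest for both. The other libraries did not keep 1 order. Labelled knockout libraries 5 and 6 had lower monocyte sums than wild-type libraries 1, 2 and 7. Their interferon medians, 0.11 and 0.37, lay above the -0.34 and -0.38 of wild-type libraries 1 and 2. A link between the 2 lists was not tested. Of the 13 monocyte markers, 8 were above 0 (61.5%, against 61.9% of all genes) and 5 below, down to -1.96, with Ccr2 at -0.36. Treml4 and Cd300e, receptors of nonclassical monocytes, were named after their values were seen, and Cd300e is not on the list. They do not stand for genes of these cells in general. The monocyte marker Nr4a1 had a difference of 0.38 (limma unadjusted p = 0.133). The chemokine receptor Cx3cr1 had one of -0.56 (limma unadjusted p = 0.545). Treml4 was at 68.1, 65.0, 25.8 and 28.1 FPKM in the labelled knockouts, against 13.6, 14.2, 13.9 and 4.08 FPKM in wild type (limma adjusted p = 0.137). Cd300e was at 34.9, 33.0, 61.6 and 53.0 FPKM in the labelled knockouts, against 9.66, 5.37, 2.89 and 0.449 FPKM in wild type (3.35 ± 0.55, limma adjusted p = 0.0852). Without wild-type library 8 the Cd300e difference was 2.81 ± 0.36 and passed (limma adjusted p = 0.0343).

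Neutrophil markers, 15 in the table, summed to 1262 to 7308 FPKM in the labelled knockouts, against 1172 to 19603 FPKM in wild type, with wild-type library 2 highest. S100a8, an abundant neutrophil protein, was at 4147, 3433, 764 and 548 FPKM in the labelled knockouts, against 4989, 10588, 615 and 488 FPKM in wild type (limma adjusted p = 0.89). Fibroblast markers, 15 in number, summed to 13.5 to 35.2 FPKM in the labelled knockouts, against 27.9 to 32 FPKM in wild-type libraries 1, 2 and 7 and 297 FPKM in library 8. Erythroid and platelet markers summed to 74.1 to 124 FPKM in the labelled knockouts, against 130 to 731 FPKM in wild type, and markers of eosinophils, basophils and mast cells to 2.82 to 3.40 FPKM, against 6.10 to 31.9 FPKM. For both of these lists the groups did not overlap. One of the latter list, Prg2, an eosinophil granule protein, was at 0.194, 0.180, 0 and 0.381 FPKM in the labelled knockouts, against 1.18, 2.11, 10.1 and 2.92 FPKM in wild type. Endothelial markers summed to 23.4 to 50.9 FPKM in the labelled knockouts, against 6.38 to 23.7 FPKM in wild type, with Cldn5 at 0 throughout. Pecam1, which leukocytes also make, was at 18.8, 17, 46.3 and 44.9 FPKM in the labelled knockouts, against 8.19, 6.22, 15.8 and 3.36 FPKM in wild type (1.83 ± 0.47, limma adjusted p = 0.145). Melanoma markers summed to 10.7 FPKM at most, with Tyrp1, Dct, Sox10, Slc45a2 and Oca2 at 0 in every library. T and NK cell markers summed to 18.1 to 71.7 FPKM over the 8 libraries, dendritic cell markers to 18.5 to 35.6 FPKM and B cell markers to 5.20 to 10.3 FPKM, with Pax5, Blk and Mzb1 at 0.

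**Figure D5:**
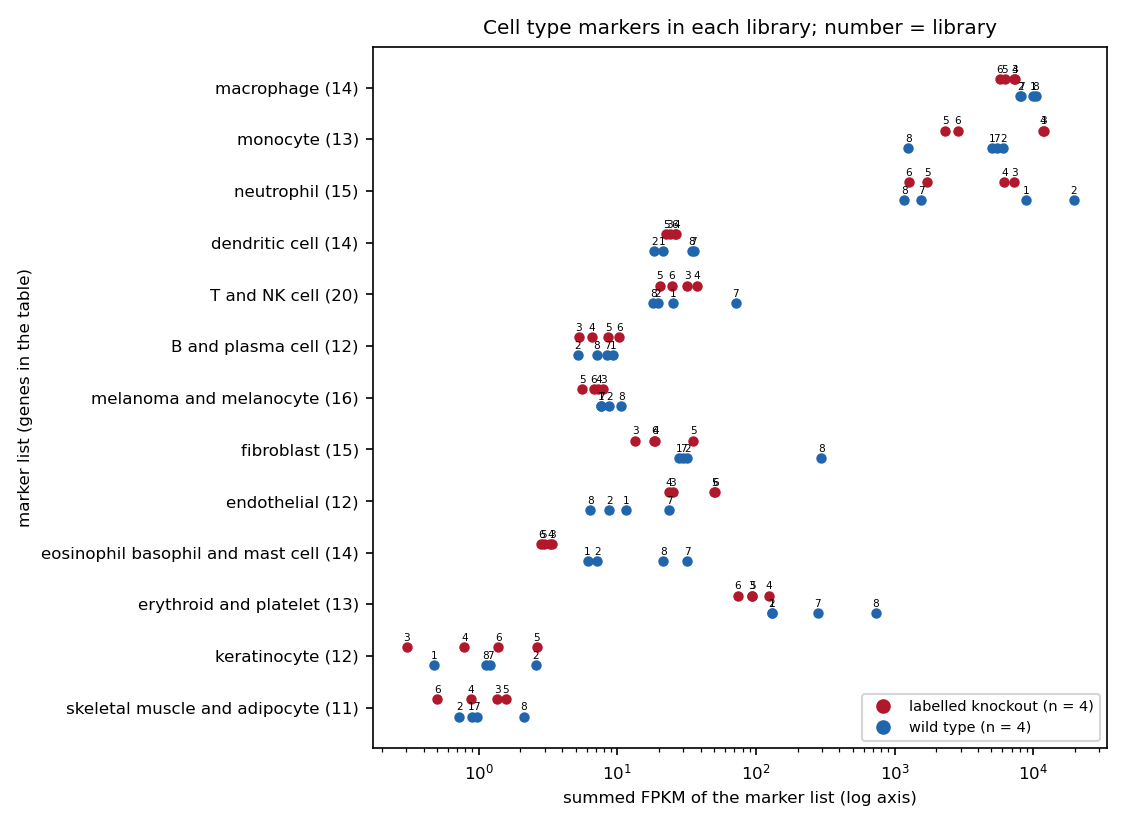
Summed FPKM (log axis) of 13 cell type marker lists in each library, with labelled knockouts (red) drawn above wild type (blue) in each row, and the number of markers in the table in brackets. Points are libraries with their number (n = 4 each). Wild-type library 8 stands out with 297 FPKM of fibroblast markers, and labelled knockout libraries 3 and 4 with 11959 and 11742 FPKM of monocyte markers.

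The same genotype labels in bone marrow-derived macrophages (BMDM), cultured for 7 days and given IL4 at 20 ng/ml for 24 h, gave little overlap with the TAM calls. IL4 induces alternative activation. In 2 labelled knockout and 2 wild-type libraries at 24 h, from a fit of all 12 BMDM libraries, 781 of 10510 genes passed adjusted p 0.05 (7.43%), 556 higher (5.29%) and 225 lower (2.14%). Of the 10 genes called in TAM, 8 were tested there, 3 had the same sign and 1 passed, Bin2, in the opposite direction. Bin2 was at 21.0 and 22.7 FPKM in labelled knockout BMDM, against 29.9 and 32 FPKM in wild type (-0.48 ± 0.09, limma adjusted p = 0.0102). Arg1 was lower in both settings and past the threshold in BMDM. There it was at 373 and 417 FPKM in the labelled knockouts, against 1065 and 991 FPKM in wild type (-1.38, limma adjusted p = 2.8e-04). Folr2, at 33.0 and 40.3 FPKM in the labelled knockouts and 78.1 and 96.0 FPKM in wild type, passed in BMDM (-1.22, limma adjusted p = 0.00173) and not in TAM. Clec10a was at 300 and 299 FPKM in labelled knockout BMDM, against 257 and 297 FPKM in wild type (limma adjusted p = 0.62). The tables were normalized separately and the libraries made differently, so the difference between the settings was not tested.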

How the data were processed

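The authors deposited FPKM values per gene and library, made with TopHat and Cuffdiff on the mm9 mouse genome, per the submitters' processing notes. Versions, annotation, strand and filters are not given in the sources used here. The BMDM table names its unit, whereas for the TAM table FPKM was taken from the processing notes and its values. BMDM RNA was depleted of ribosomal RNA, per the labels, and TAM RNA selected for poly(A). The 4 libraries of 5-hydroxymethylcytosine were not used.

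Each table listed 23309 entries, of which 2 repeated symbols were dropped, leaving 23307 genes. FPKM holds no counts, so depth is unknown and no counting interval is given. Total FPKM in TAM was 337994 to 464812. Exact zeros occurred in 67 genes above 50 FPKM in another library, of which 41 were small RNAs or numbered models, and Canx was among the rest. Counting could have split reads among MHC class I, Gbp and other near-identical genes.

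log2(FPKM + 1) was tested with limma 3.58.1 in R 4.3.3, two-sided, with moderated variances that follow an intensity trend, and the p-values of all tested genes in a table were adjusted together (Benjamini-Hochberg). A TAM gene was tested at 1 FPKM or more in at least 4 libraries, a BMDM gene in at least 2. TAM had 6 residual degrees of freedom, 8.5 with the prior.

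Genes were named by rule: those past the threshold with separate groups and at least 3 FPKM in the higher group, filled by smallest p to 8 a direction; up to 5 members of each list by smallest p; the TET genes, 13 activation genes and the leading markers. Snora34, Canx, Axl, Treml4, Cd300e, Nr4a1, Cx3cr1, Fkbp5, Klf9, Glul and Tsc22d3 were named after their values were seen. The members and lists were chosen with earlier results of these data known. Promoters came from RefSeq, GRCm38.p6. Alternatives were another pseudocount, filters, scalings, array weights, no trend, a replicate block in BMDM, leaving out libraries and averaging close pairs. Results for some genes are not reported here.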

Additional observations from a re-analysis of the deposited data

Results flagged for a closer look

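For 90 genes named in the text, each group of 4 TAM libraries was examined for a library separated from the other 3 beyond Dixon's 95% critical value for 4 samples, a distance that chance gives in about 5 of 100 groups. Of 180 groups, 19 held one.

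Wild-type library 8 was the separate one in 11. It was the low one for Cdk14 (2.90 FPKM), Xaf1 (2.83 FPKM), Cxcl9 (2.09 FPKM), the monocyte gene Plac8 (79.0 FPKM), Treml4 (4.08 FPKM) and Xist (0.414 FPKM). It was the high one for Cd163 (47.5 FPKM), Lyve1 (61.8 FPKM), the collagen gene Col1a2 (77.2 FPKM) and the Y-linked genes Ddx3y (20.3 FPKM) and Eif2s3y (21.5 FPKM).

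Labelled knockout library 5, the library with the most genes at 0, was separate for Parp11 (9.42 FPKM), Abi3 (17.3 FPKM), Ccl4 (1028 FPKM) and Bnip3l (23.6 FPKM), and labelled knockout library 6 was for Il6 (3.38 FPKM). Wild-type library 7 was separate for Il1rl2 (10.2 FPKM) and Fkbp5 (144 FPKM), and wild-type library 2 for Lifr (11.8 FPKM). What sets these libraries apart was not tested.

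For 14 genes the groups overlapped neither in TAM nor in BMDM after 24 h of IL4, but with opposite signs, and the difference between the settings was not tested. The share of all genes with this pattern was not counted, so the number is a description only. With 2 BMDM libraries per group, some groups were barely apart. The lowest labelled knockout and highest wild type were at 299 and 297 FPKM for Clec10a and at 640 and 639 FPKM for Ccl9. The BMDM differences, labelled knockout minus wild type in log2(FPKM + 1), were below 0 for Bin2 (-0.48), Pparg (-0.33), Isg15 (-0.72), Ctsz (-0.21), Ctsc (-0.12) and Itgb2 (-0.17), which were higher in the labelled knockouts in TAM. They were above 0 for Clec10a (0.12), Scd2 (0.47), Ccl9 (0.10), Bnip3l (0.12), Npc1 (0.16), Mertk (0.21), Slc40a1 (0.31) and Glul (0.08), which were lower there. Of these BMDM differences, Bin2 (adjusted p = 0.0102) and Scd2 (adjusted p = 0.0256) passed limma's test.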

How the results depend on the processing

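The count of 10 genes past adjusted p 0.05 in limma's test depended on the setting. It was 8 with a pseudocount of 0.1, 11 with a filter of 1 FPKM in every library, and 6 with no filter, under median-of-ratios scaling, under quantile normalization or without the intensity trend. Under either scaling 1 gene rose and 5 fell, against 5 and 5. Array weights gave 2055 calls. Alternatives added after seeing the data gave 1 call each: averaging labelled knockout libraries 3 and 4 (Snora34), averaging both close pairs (Snora65) and leaving out labelled knockout library 5 and wild-type library 8 (Snora34). Leaving out 1 library in turn gave 1 to 24 calls, the highest without wild-type library 8, and 1 without labelled knockout library 3, 4 or 5. Over all alternatives with a value, Snora34 passed in 16 of 17, Clec10a in 12 of 18 and Cd276 in 11 of 18, each with the same sign throughout. For BMDM after 24 h of IL4, the count of 781 became 1208 under median-of-ratios scaling and 146 to 1251 when 1 library was left out. With a replicate block it was 619, of which 431 were higher and 188 lower. No paired analysis was possible because the TAM libraries are numbered 1 to 8 across the groups.

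Among single genes, the sign reversed for Nos2 (-0.39) and Il6 (-0.37) without wild-type library 8, and at -0.57 and -0.56 without labelled knockout library 5 as well. Spp1 reversed to 0.46 and 0.44 in these fits, to 0.47 with array weights and to 0.02 without wild-type library 2. With array weights Tet3 was at 0.06 and Vegfa at -0.17. Mgl2 was at 0.14 without wild-type library 7, and S100a8 at 0.15, 0.09 and 0.45 without labelled knockout library 6, wild-type library 1 or wild-type library 2. Over the fits without 1 library the differences ranged from -0.39 to 1.48 for Nos2, -0.37 to 1.10 for Il6, -0.62 to 0.46 for Spp1, -1.29 to 0.14 for Mgl2 and -1.03 to 0.45 for S100a8. None of the reversed values passed limma's test (adjusted p = 0.348 to 0.99). Of 88 genes named in the text with a value in both fits, 15 had a difference over 1.5 times smaller without wild-type library 8, among them Cd274, Cxcl9 (0.16), Cxcl10 (0.93), Il1b (0.50) and Ly6c2 (0.27), and S100a8 a larger one. Depth is unknown, which limits genes near 1 FPKM most, above all in labelled knockout library 5.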

Other observations

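Several genes that glucocorticoid hormones induce lay below 0 in the labelled knockouts. The list was drawn up after values were seen, so its counts are a description and carry no test. Of 18 members 17 were tested and 14 were below 0, leaving 17.6% above 0, against 61.9% of all genes. Groups did not overlap in 8, against 3.27% of all genes on the lower side. The median was -1.19, and -1.25 without wild-type library 8. It rests in part on zeros, which can be failed estimates, since 2 of the 17 were listed at 0 in 1 or more labelled knockouts. Of the other 15, 12 were below 0, with a median of -0.98. Sult1a1 and Cd163, described above, are members. Fkbp5, a chaperone that dampens the glucocorticoid receptor, was at 15.2, 16, 13.7 and 15.9 FPKM in labelled knockout libraries 3, 4, 5 and 6, against 53.3, 46.2, 144 and 47.9 FPKM in wild-type libraries 1, 2, 7 and 8 (-2.01 ± 0.34, limma adjusted p = 0.0916). The labelled knockouts lay close together and far under every wild type. Klf9, a transcription factor, was at 3.36, 3.45, 0.626 and 1.33 FPKM in the labelled knockouts, against 11.4, 7.59, 18.1 and 8.85 FPKM in wild type (limma adjusted p = 0.101). Glul, glutamine synthetase, was at 24.3, 26.8, 23.3 and 31.6 FPKM in the labelled knockouts, against 59.4, 45.4, 97.5 and 85.6 FPKM in wild type (limma adjusted p = 0.101). Tsc22d3, which encodes the mediator GILZ, differed less, at 71.2, 74.8, 68.3 and 64.8 FPKM in the labelled knockouts, against 121, 77.2, 153 and 75.5 FPKM in wild type (limma adjusted p = 0.292). In BMDM after 24 h of IL4 the differences of Fkbp5, Klf9 and Glul were -0.03, -0.04 and 0.08.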
